A study of Mus musculus with 3 samples.

Results

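The genes described here are 6 members of the mouse signal transducer and activator of transcription (STAT) family: Stat2, Stat3, Stat4, Stat5a, Stat5b and Stat6. They were chosen by name, and each was found by its Ensembl identifier among the 22457 genes of the deposited count tables. The study sequenced polyadenylated RNA of primary regulatory T cells from adult mice aged 4 months, which the labels trace back to bone marrow hematopoietic cells. Its 3 libraries form 1 group and are labelled technical replicates 1, 2 and 3 of 1 biological replicate, called libraries 1, 2 and 3 here. There is therefore no contrast between conditions, and every SD and p-value describes the spread between these 3 libraries. By the labels this is technical spread, and it cannot stand for the spread between animals. The sources used here do not give strain, genotype, any treatment, the sorting scheme or the number of mice, and sex is recorded as not collected.

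STAT proteins wait in the cytoplasm until a cytokine engages its receptor, whereupon Janus kinases (JAKs) bound to the receptor phosphorylate both receptor and STAT. Phosphorylated STATs pair up, enter the nucleus and switch on target genes, among them the SOCS genes, whose products shut the receptor complex down. In regulatory T cells, which restrain immune responses, interleukin-2 acting through STAT5 sustains the lineage factor Foxp3, while other STATs relay interferons (STAT2), interleukins 6, 10 and 21 (STAT3), interleukin-12 (STAT4) and interleukin-4 (STAT6). RNA-seq counts transcripts and does not report phosphorylation.

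The libraries held between 2872350 and 3228215 counts. Counts were scaled to a library total of 1000000 (CPM), so that 1 CPM was worth 2.87 to 3.23 counts. The 6 genes listed as markers of regulatory T cells (Foxp3, Cd4, Cd3e, Il2ra, Ikzf2 and Tnfrsf18) summed to between 2260 and 2368 CPM. All of them were above 1 CPM in every library. Of these, Cd4 and Cd3e are shared with other T cells, and averaged 550.9 and 395.3 CPM, against 149.8 for Foxp3. Compared as sums, markers of other blood cells were lower and less even. Summed levels ran from 235 to 390 CPM for 6 B cell genes, 38.4 to 449 for 4 plasma cell genes, 30.1 to 65.8 for 6 monocyte or macrophage genes, and 1.56 to 74.3 for 6 neutrophil genes. They ran from 8.11 to 196 CPM for 6 erythroid genes, 33.4 to 53.6 for 4 NK cell genes and 27.8 to 39.0 for 2 CD8 T cell genes. Plasma cell, neutrophil and erythroid sums were highest in library 2 and B cell, macrophage, NK and CD8 sums in library 3, and 0 of these marker genes were without a count in all libraries. In libraries 1, 2 and 3 the plasma cell marker Igha had 4, 1007 and 149 counts and the erythroid marker Hbb-bs 0, 167 and 145. The B cell marker Cd22 was more even, at 172, 165 and 149. Foxp3 had 455, 507 and 432 counts, more than Igha in libraries 1 and 3 but fewer in library 2. A negative binomial test that allows for the general spread between these libraries called 0.914% of all genes at an adjusted p under 0.05. It called 6 of 6 tested erythroid markers, 4 of 4 neutrophil, 2 of 3 plasma cell, 2 of 5 B cell and 1 of 2 NK. Among the regulatory T cell, monocyte or macrophage and CD8 T cell markers it called 0. All 3 libraries are labelled technical replicates, and whether a different mix of cells caused these differences was not tested. The part of these other blood cells in the STAT counts was not tested, and in bulk RNA fewer cells of a type and less RNA per cell cannot be told apart.

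All 6 STAT genes were detected above 1 CPM, and indeed above 10 CPM, in every library. To compare genes of different length, CPM was divided by the length of the longest coding sequence in kilobases. On that scale Stat6 stood highest, at 270.2 ± 19.9 CPM per coding kilobase (SD, n = 3 libraries, as for every ± below), followed by Stat4 at 231.7 ± 7.63, Stat3 at 140.5 ± 6.89 and Stat2 at 85.8 ± 6.78. Stat5a (53.5 ± 9.61) and Stat5b (52.9 ± 9.09) came last. The median of the 10231 tested genes with a coding sequence was 35.2 CPM per coding kilobase, below every STAT gene. Stat6 lay at the 94.2nd percentile of those genes and Stat5b at the 61.1st.

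**Figure D1:**
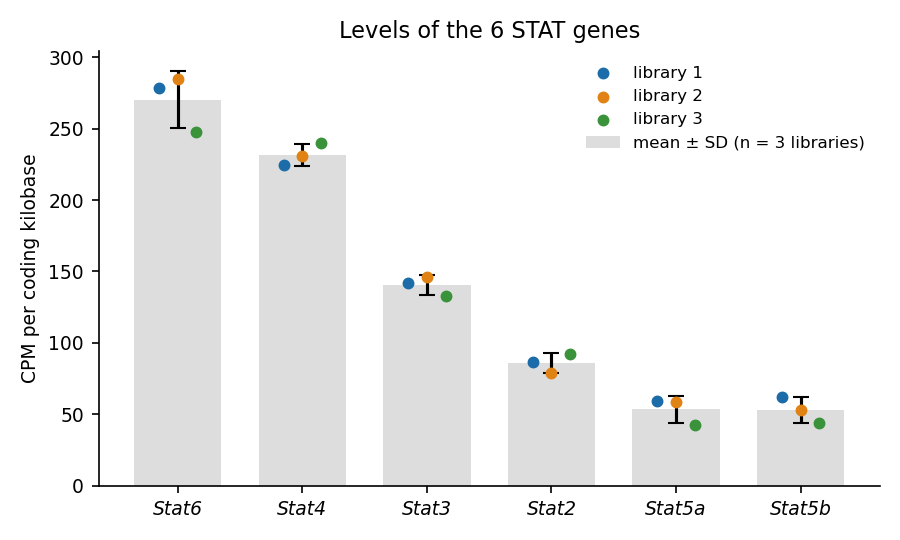
Level of each STAT gene in CPM per coding kilobase (vertical axis, from 0). Points are the 3 libraries, bars the mean and whiskers the SD; Stat6 and Stat4 exceeded 200 in every library, while both Stat5 genes stayed under 65.

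Neighbours in this order were compared within each library. Stat6 exceeded Stat4 in 3 of 3 libraries, by a log2 ratio of 0.22 ± 0.15, and the ratio of pooled counts per coding base was 1.17 (95% exact binomial interval 1.13 to 1.22, which like all intervals here covers counting error only). In library 3 the margin was only 0.05 on the log2 scale, against 0.31 in library 1 and 0.30 in library 2. Stat4 stood above Stat3 by 0.72 ± 0.11, Stat3 above Stat2 by 0.71 ± 0.18, and Stat2 above Stat5a by 0.70 ± 0.37, each in 3 of 3 libraries and without overlap of their ranges. Only Stat5a and Stat5b overlapped, with a log2 ratio of 0.01 ± 0.12. An exact 2-sided sign test over 3 libraries cannot go below p = 0.25, so no p is attached to the order. As shares of the summed STAT level, Stat6 held 32.4% ± 1.23, Stat4 27.8% ± 1.95, Stat3 16.8% ± 0.31, Stat2 10.3% ± 1.17, and the Stat5 genes together 12.7% ± 1.75.

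Stat2 carries signals of type I interferons. It lies on chromosome 10 of the GRCm38 assembly (chr10:128270559-128292849, plus strand), 609601 bases from Stat6. Stat2 had 767, 704 and 734 counts in libraries 1, 2 and 3, or 86.4, 78.8 and 92.3 CPM per coding kilobase. Library 3 was the highest and library 2 the lowest, with a ratio of scaled counts of 1.20 (95% interval 1.08 to 1.33). The 3 counts differed by more than Poisson counting error (Pearson's chi-square test, Benjamini-Hochberg adjusted p = 0.0128 over 10282 genes), a test that called 27.6% of all genes. This call was lost without library 2 (adjusted p = 0.50) and without library 3 (adjusted p = 0.12). Of the interferon receptor chains, Ifnar1, which passed, averaged 99.9 ± 12.3 and Ifnar2 49.4 ± 4.44 CPM per coding kilobase, and Ifnlr1, the interferon lambda receptor chain, had no count in any library. Irf9, the DNA-binding partner of Stat2, averaged 222.3 ± 10.5. All 12 interferon target genes listed exceeded 1 CPM in every library, among them Rtp4 (271.9 ± 25.7 CPM per coding kilobase), Usp18, a brake on the interferon receptor (199.8 ± 31.2), and Irf7, an amplifier of interferon transcription (193.4 ± 15.5). The interferon targets that passed the same test numbered 6 of 12, beside the 27.6% of all genes. Of these 6, 4 were lowest in library 1, 1 in library 3 and 1, Usp18, in library 2. Usp18 was highest in library 3, like Stat2, with a ratio of 1.39 (1.25 to 1.56). That pattern, lowest in library 2 and highest in library 3, was shown and passed by 5.48% of all genes. Ifit3 was lowest in library 1 and highest in library 3, with a ratio of 1.60 (1.25 to 2.06).

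Promoters of the STAT genes were searched for the interferon-response pattern (GAAA, any 2 bases, GAAA) and the palindrome TTCNNNGAA that STAT dimers recognise, on both strands of the windows from 250 bases before to 50 bases after each RefSeq start site (GRCm38.p6). The interferon-response pattern occurs in 3.44% of 32851 such mouse windows. It occurred once in the Stat2 window, 222 bases before the start, and once in the window of the downstream Stat4 start, 97 bases before it, shown here because these were the only matches among 9 windows of the 6 genes. The sequences are given 5′ to 3′ on the plus strand, which is the gene strand of both, with the matching bases in capitals (chr10:128270266-128270295 for Stat2 and chr1:52008133-52008162 for Stat4).
Stat2: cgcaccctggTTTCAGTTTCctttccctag
Stat4: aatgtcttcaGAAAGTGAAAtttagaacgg
The palindrome TTCNNNGAA, present in 8.30% of all windows, was in none of the 9. A match describes the letters only, and binding was not measured.

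Stat3 relays interleukins 6, 10, 21 and 27, and sits on chromosome 11 (chr11:100885098-100939540, minus strand). Its counts were 1052, 1092 and 882, or 142.0, 146.4 and 132.9 CPM per coding kilobase. Library 2 was the highest and library 3 the lowest, but the ratio of 1.08 had an interval of 0.985 to 1.18 and the chi-square test did not pass (adjusted p = 0.343). The receptor chains feeding Stat3 spanned a wide range: Il27ra, the interleukin-27 receptor, averaged 341.4 ± 7.16 CPM per coding kilobase, Il21r 171.8 ± 16.9, Il6ra 103.3 ± 5.99 and Il6st, the shared gp130 chain, 80.3 ± 12.9. The 3 of 7 chains that passed the test, Il6st, Il21r and the interleukin-10 receptor chain Il10ra, stand beside 27.6% of all genes. Il6st was higher in library 1 than in library 2 by 1.41 (1.27 to 1.57), and Il21r higher in library 1 than in library 3 by 1.22 (1.11 to 1.35). With the trend of each library with GC content removed, as described further on, Il27ra passed as well (adjusted p = 0.0202, against 0.188 before). Of 7 Stat3 targets listed, Batf, a leucine zipper transcription factor, was the highest at 289.5 ± 36.4. Socs3, the feedback inhibitor of gp130 signalling, averaged 68.2 ± 19.6 and Junb 59.9 ± 13.5. Socs3 and Junb were the 2 of these 7 that passed, both highest in library 2 and lowest in library 3, by 1.65 (1.29 to 2.11) and 1.53 (1.24 to 1.90), a pattern that 4.04% of all genes showed and passed. With the GC trend removed Junb no longer passed (adjusted p = 0.0519).

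Stat4 transmits interleukin-12 signals and is known for its part in type 1 helper T cells. It spans chr1:51987148-52107189 on the plus strand. Stat4 had 1617, 1671 and 1546 counts, or 224.7, 230.7 and 239.9 CPM per coding kilobase. These were the most even values of the 6 genes, with an SD of 3.29% of the mean, against 4.90% to 18.0% for the others. The ratio of library 3 to library 1 was 1.06 (0.992 to 1.14), and the test did not pass (adjusted p = 0.258). While Stat4 was the second most abundant STAT gene, its receptor chains stood below all 6 STAT genes. Il12rb1 averaged 37.9 ± 6.97 CPM per coding kilobase, near the 35.2 median of tested genes. It passed the chi-square test, though not with the GC trend removed (adjusted p = 0.0750). Il12rb2, the chain that recruits Stat4, was low, at only 1.47 ± 0.27 from 15, 11 and 10 counts. Among 6 Stat4 targets listed, Il18r1, an interleukin-18 receptor chain, reached 79.8 ± 4.86, its partner Il18rap 19.0 ± 2.93 and Ifng, the interferon gamma gene, 14.7 ± 5.21. Some of these targets had few counts, such as Ifng with 18, 31 and 15 in libraries 1, 2 and 3. By the chi-square test 0 of the 6 targets passed after adjustment, beside 27.6% of all genes, and 1 had an unadjusted p under 0.05. By a negative binomial test that allows for the general spread between these libraries, 0 had an unadjusted p under 0.05.

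Stat5a and Stat5b mediate interleukin-2, interleukin-7 and other signals of the common gamma chain. They lie back to back on chromosome 11, Stat5b on the minus strand (chr11:100780731-100850724) and Stat5a on the plus strand (chr11:100859351-100885169), with 8626 bases between them. Over their aligned coding bases the genes were 90.8% identical, with 167 of 2458 alignment columns held by gaps. Their longest identical stretch covered 324 bases, coding bases 571 to 894 in each, in exons 6 to 8. Its first 120 bases are printed because reads from them fit both genes equally well (GRCm38, chr11:100874023-100874347 with 1 intron for Stat5a, chr11:100798377-100798701 with 1 intron for Stat5b, gene strand).
Stat5a and Stat5b, shared: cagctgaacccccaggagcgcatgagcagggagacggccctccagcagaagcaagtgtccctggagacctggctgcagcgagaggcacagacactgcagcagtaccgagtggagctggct
The 120-base aligned window without gaps that differed most, coding bases 45 to 164 in both genes, held 33 mismatches, shown in capitals, which reads can use to tell the genes apart (exons 2 and 3, chr11:100861382-100861756 for Stat5a and chr11:100804991-100808479 for Stat5b, gene strand, introns left out).
Stat5a: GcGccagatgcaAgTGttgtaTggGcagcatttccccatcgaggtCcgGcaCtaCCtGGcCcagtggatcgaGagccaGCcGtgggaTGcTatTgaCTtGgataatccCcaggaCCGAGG
Stat5b: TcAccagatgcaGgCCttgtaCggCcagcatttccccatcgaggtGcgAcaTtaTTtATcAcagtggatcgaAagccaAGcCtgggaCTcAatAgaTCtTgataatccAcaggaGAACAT

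**Figure D2:**
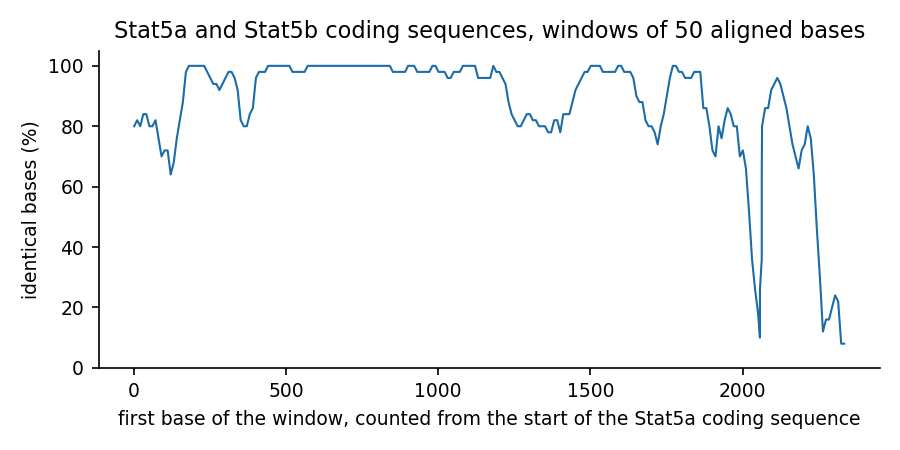
Percentage of identical bases (vertical axis) in windows of 50 alignment columns along the Stat5a and Stat5b coding sequences, by the position of the window's first base in Stat5a (horizontal axis); gap columns count as differences. Identity was complete for windows lying within bases 571 to 894 and fell steeply near the end of the coding sequence.

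Stat5a had 454, 454 and 291 counts in libraries 1, 2 and 3, or 59.2, 58.8 and 42.4 CPM per coding kilobase. Libraries 1 and 2 were level and library 3 was lower, with a ratio of library 1 to library 3 of 1.40 (1.21 to 1.63) and an adjusted p of 1.4e-04 by the chi-square test. Stat5b had 469, 403 and 297 counts, or 62.0, 52.9 and 43.9 CPM per coding kilobase. Library 1 was again the highest and library 3 the lowest, by 1.42 (1.22 to 1.65), with an adjusted p of 1.5e-04 by the same test. Without library 3 the Stat5a call was lost (adjusted p = 0.834), while that of Stat5b was lost without library 1 (adjusted p = 0.124). The summed Stat5 level was 121.2, 111.8 and 86.2 CPM per coding kilobase. The log2 ratio of Stat3 to this sum was 0.23, 0.39 and 0.62 per coding base. This direction depended on the length used: the ratio was -0.43, -0.25 and -0.03 with exon length, and -0.67, -0.51 and -0.27 with only the coding bases that no other STAT gene shares.

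Per coding base, Stat5a and Stat5b were at nearly equal levels. The log2 ratio of Stat5b to Stat5a per coding base was 0.07, -0.15 and 0.05, with a mean of -0.01 ± 0.12, and from pooled counts it was -0.02 (95% interval -0.13 to 0.10). The sign depended on the length used: divided by all exon bases instead of coding bases the mean was 0.33. Runs of 50 coding bases that occur in the other gene made up 26.0% of Stat5a and 26.3% of Stat5b, and they covered 1098 coding bases, or 45.9% and 46.6%. The sources used here do not say how reads from such bases were counted. If the counts are divided by the unshared coding bases alone, Stat5a comes to 98.9 ± 17.8 and Stat5b to 99.1 ± 17.01 CPM per kilobase, above the 85.8 ± 6.78 of Stat2, so the place of the Stat5 pair below Stat2 depends on that step.

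The 8 receptor chains listed for Stat5 ran from 0.447 to 540.8 CPM per coding kilobase. The highest were Il2rb, the signalling beta chain of the interleukin-2 receptor (540.8 ± 34.9), Il2ra, its alpha chain CD25 (480.2 ± 58.3), and Il7r, the interleukin-7 receptor chain (339.3 ± 48.0), all above each of the 6 STAT genes. Il2rg, the common gamma chain, averaged 203.0 ± 12.3, below Stat6 and Stat4. Il2rb, Il2ra and Il7r were the 3 of 7 tested chains that passed the chi-square test, beside 27.6% of all genes, and all 3 were highest in library 3 and lowest in library 2, a pattern that 5.48% of all genes showed and passed. Among the 7 Stat5 targets listed, Bcl2, a survival factor, averaged 295.5 ± 36.0, Cish, a feedback inhibitor, 199.5 ± 6.57, and Foxp3 116.4 ± 5.91, and the lowest of the 7, Socs2, another feedback inhibitor, 30.7 ± 3.51. Il2ra and Bcl2 were the 2 of these 7 that passed, with ratios of library 3 to library 2 of 1.30 (1.20 to 1.41) and 1.31 (1.17 to 1.46). The Foxp3 counts did not pass (adjusted p = 0.623).

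Stat6 transmits interleukin-4 and interleukin-13 signals and lies at chr10:127642986-127660957 on the plus strand. Its counts were 2244, 2306 and 1785, the largest of the 6 genes, or 278.7, 284.5 and 247.5 CPM per coding kilobase. Libraries 1 and 2 were close and library 3 was lower, with a ratio of library 1 to library 3 of 1.13 (1.06 to 1.20) and an adjusted p of 0.00109 by the chi-square test. The call was lost without library 3 (adjusted p = 0.973). Il4ra, the shared receptor chain, averaged 174.3 ± 11.4 CPM per coding kilobase and Il13ra1 3.24 ± 1.85. By the chi-square test 0 of these 2 passed after adjustment, beside 27.6% of all genes, with 2 at an unadjusted p under 0.05. By the negative binomial test 1 was at an unadjusted p under 0.05. Gata3, the Stat6 target that drives type 2 helper T cells, averaged 249.1 ± 34.9. Gata3 passed, with a ratio of library 2, the highest, to library 3, the lowest, of 1.27 (1.16 to 1.39). Il4i1, an amino acid oxidase, also passed, at a low level of 5.79 ± 2.52. These were 2 of the 3 Stat6 targets listed, beside the 27.6% of all genes.

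Counted together, 4 of the 6 STAT genes (Stat2, Stat5a, Stat5b and Stat6) differed between the libraries by more than Poisson error. The same test called 27.6% of all 10282 genes tested, so differences between these libraries were widespread. Of the 4, Stat5a, Stat5b and Stat6 were lowest in library 3, as were 7.91% of all genes tested (called and lowest there). The negative binomial test, which allows the spread estimated by edgeR over all genes (a coefficient of variation of 12.5%), called 0 of the 6, with 0 at an unadjusted p under 0.05 and unadjusted p-values from 0.19 to 0.92, and 0.914% of all genes.

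**Figure D3:**
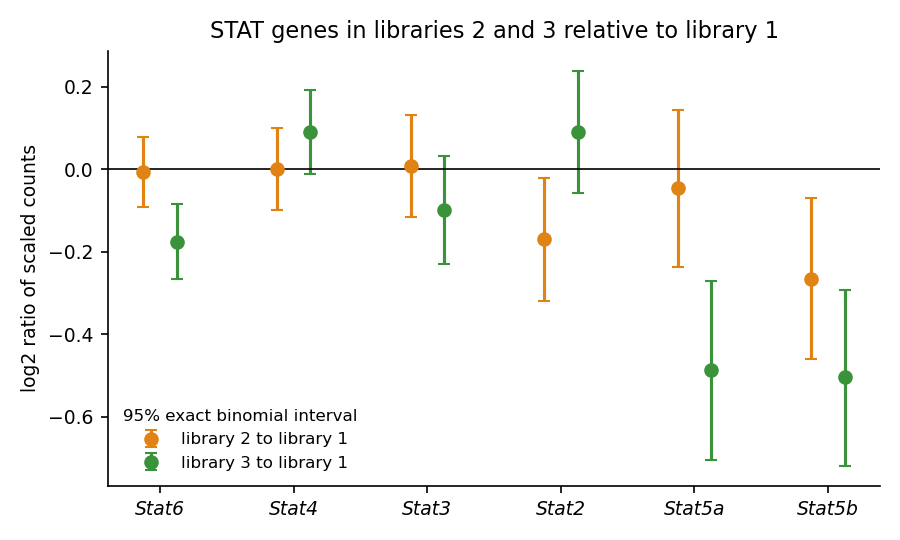
Log2 ratio of scaled counts in library 2 (orange) and library 3 (green) to library 1 for each STAT gene, with 95% exact binomial intervals. Library 3 lay below library 1 for Stat5a, Stat5b and Stat6 with intervals that exclude 0, and Stat2 and Stat5b were lower in library 2.

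GC content moved with the library. Genes with a coding GC content of 55% or more (3519 genes) had a median log2 ratio of library 3 to the mean of the libraries of -0.05, and the 1402 genes under 45% had a median of 0.02. The coding GC content was 58.5% in Stat5a, 57.0% in Stat5b and 55.4% in Stat6, the 3 genes that passed the test and were lowest in library 3. It was 53.2% in Stat3, which was also lowest in library 3 but did not pass, and 53.6% in Stat2 and 44.6% in Stat4, both highest in library 3. With the GC trend of each library removed, the same 4 STAT genes passed the chi-square test (adjusted p = 0.0167 for Stat2, 0.00286 for Stat5a, 0.00157 for Stat5b and 0.0181 for Stat6), among 25.3% of all genes. The log2 ratio of library 3 to library 1 went from -0.49 to -0.42 in Stat5a, from -0.50 to -0.44 in Stat5b and from -0.18 to -0.11 in Stat6.

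**Figure D4:**
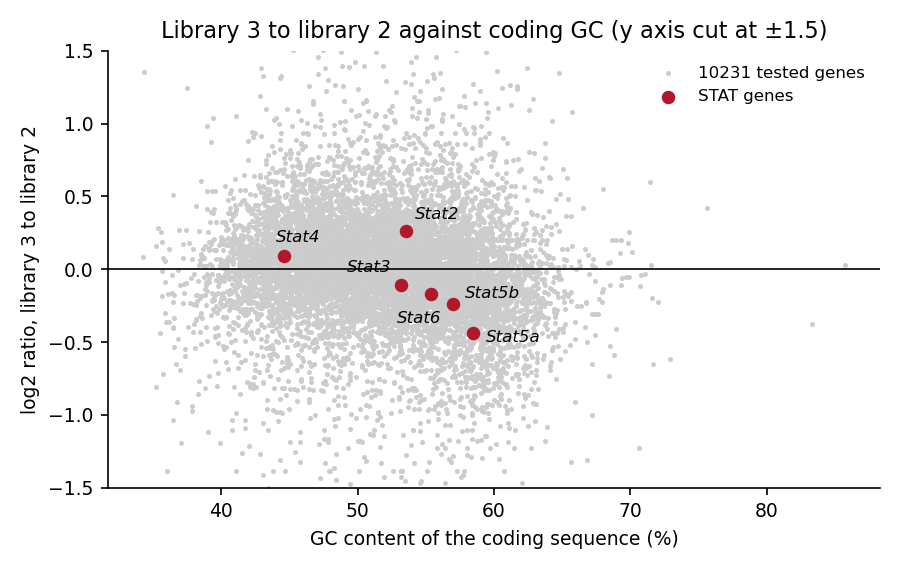
Log2 ratio of scaled counts in library 3 to library 2 (vertical axis) against the GC percentage of the coding sequence (horizontal axis) for 10231 tested genes (grey) and the 6 STAT genes (red). Stat5a, with the highest GC content of the 6, has the lowest ratio, and Stat2 and Stat4 lie above 0.

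Length and shared sequence bear on the order of levels. With exon length in place of coding length, Stat6 (154.1 ± 11.4 CPM per exon kilobase) and Stat4 (134.3 ± 4.42) stayed on top. Stat2 (40.1 ± 3.17) then stood above Stat3 (34.1 ± 1.67), whose exons add up to 9527 bases against 2310 coding bases. Among genes with coding sequences of 1000 bases or longer, the highest value in any library was 2.17 counts per coding base, and Stat6 (0.841 counts per coding base on average) and Stat4 (0.718) were the STAT genes nearest to that ceiling. If counts are expanded as though the ceiling were a limit, Stat6 becomes 343.9 ± 36.6, Stat4 282.2 ± 8.84 and Stat3 157.1 ± 9.48 CPM per coding kilobase, with the order kept; whether such a limit acts was not tested. Overlapping gene models could also share reads, since the sources used here state no strand setting. Stat3 and Stat5a overlap tail to tail by 72 bases (chr11:100885098-100885169), and Stat6 overlaps the transcriptional corepressor gene Nab2 by 40 bases (chr10:127660918-127660957). Of the 2195 50-base coding runs of Stat4, 840 (38.3%) also occur in Gm28177, a noncoding M21 gene model on the same strand. The count tables, made with GENCODE M4, have no entry for Gm28177, so no counts were assigned to it there.

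**Figure D5:**
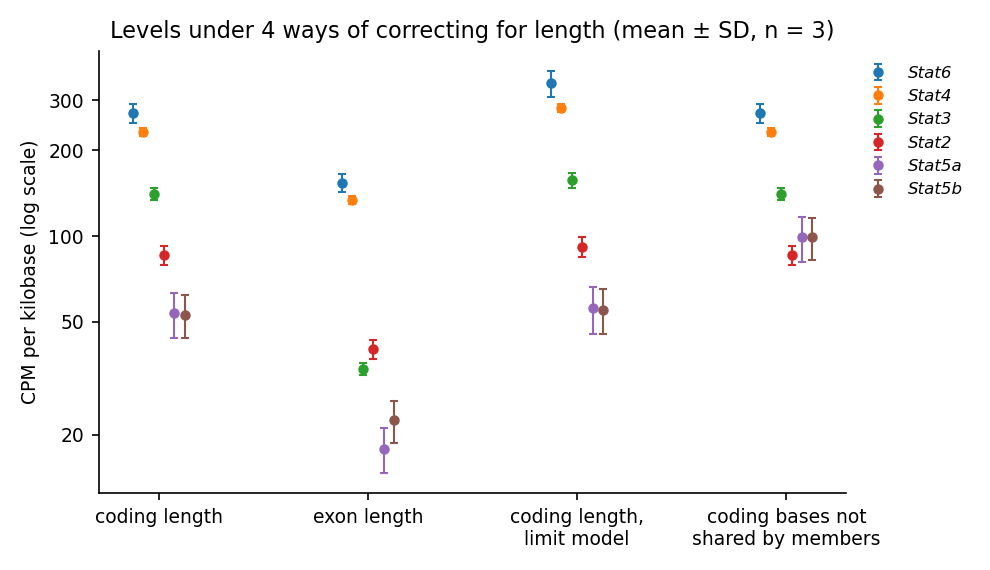
Mean ± SD (n = 3 libraries) of each STAT gene in CPM per kilobase on a log axis, with 4 definitions of length: coding bases, all exon bases, coding bases with counts expanded for a limit per base, and coding bases not shared with another STAT gene. Stat6 and Stat4 lead in every column, and Stat5a and Stat5b pass Stat2 only in the last.

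Upstream of the STAT genes, all 4 JAK genes exceeded 1 CPM in every library. Jak1, which pairs with most cytokine receptors in this pathway, averaged 414.7 ± 23.8 CPM per coding kilobase, above Stat6, while Tyk2 (88.0 ± 11.2) and Jak3, the kinase of the common gamma chain (67.7 ± 14.6), were near Stat2. Of the 4, 3 passed the chi-square test, beside 27.6% of all genes. Jak3 (ratio 1.45, 1.30 to 1.61) and Tyk2 (1.26, 1.15 to 1.39) were highest in library 2 and lowest in library 3. Jak1 (1.14, 1.10 to 1.19) was highest in library 3. The coding GC content was 61.1% in Jak3, 58.4% in Tyk2 and 48.0% in Jak1. With the GC trend removed all 3 still passed the chi-square test (adjusted p = 1.0e-05, 0.00832 and 0.000826), among 25.3% of all genes.

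Among 16 inhibitors, 5 passed the chi-square test (Socs3, Pias1, Ptpn1, Ptpn2 and Ptpn6), beside 27.6% of all genes. With the GC trend removed 3 passed, Pias1 (adjusted p = 0.207) and Ptpn2 (0.0579) being lost. The tyrosine phosphatase Ptpn6 (271.7 ± 26.3 CPM per coding kilobase) stood close to Stat6, Ptpn2 (217.6 ± 19.97) and Ptpn1 (207.6 ± 22.7) were near Stat4, and Pias1, a ligase that restrains STAT binding to DNA, averaged 215.2 ± 11.1. Of the 8 SOCS genes, Cish and Socs3 were the highest and Socs1 averaged 33.3 ± 8.30. Among 5 partners, Nmi, which binds STAT proteins, averaged 274.9 ± 23.3 and the coactivator Crebbp 57.6 ± 2.33. By the chi-square test 0 of these 5 passed after adjustment, though 4 had an unadjusted p under 0.05, and by the negative binomial test 0 had. With the GC trend removed Nmi (adjusted p = 0.0104) and the coactivator Ncoa1 (0.0249) passed. Over all 76 pathway genes 74 were tested and 26 passed, of which 8 were lowest in library 3, beside 27.6% and 7.91% of all genes. The negative binomial test called 0 of the 74, with 3 at an unadjusted p under 0.05.

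For each STAT gene the protein-coding gene with the most similar level was sought among 10086 others, by the root mean square difference of log2(CPM per coding kilobase + 0.1) over the 3 libraries. These were Lamtor4 for Stat6 (difference 0.01), Tbrg4 for Stat5b (0.01), Arrb2 for Stat3 (0.02), Hspa4 for Stat2 (0.02), Psmc5 for Stat4 (0.03) and Mmd for Stat5a (0.03). With 3 libraries the measure reflects mainly the average level.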

How the data were processed

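Whole-number counts per gene were deposited by the authors for 3 libraries, made from mm10 alignments with the GENCODE M4 annotation, per the file descriptions deposited beside them. Which aligner, counting program, strand setting and treatment of duplicates were used is not given in the sources used here. Names, positions and coding lengths came from GENCODE M21 on the same assembly, GRCm38. Names were found for 22195 identifiers; the remaining 262 held 0.117% of the counts. Promoter sequences were from RefSeq (GRCm38.p6).

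CPM used total counts. Library sizes for tests were totals times TMM factors (0.990, 1.02 and 0.993; edgeR 4.0.16 in R 4.3.3), and ratios of scaled counts use them. Each gene with a mean count of at least 10 was tested by Pearson's chi-square against Poisson expectation with 2 degrees of freedom and Benjamini-Hochberg adjustment at 0.05, using Python 3.11.15, scipy 1.17.1 and statsmodels 0.14.6. At a given ratio between libraries a gene with more counts reaches a lower p, so the share of a list that passes also depends on its counts. The chi-square procedure was tested on simulated Poisson counts, with and without a GC trend. Those counts lack the wider spread of these libraries, so behaviour under that spread was not tested. A floor of 3 counts equalled 0.929 to 1.04 CPM.

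The genes named are the 6 STAT genes, the 3 highest of each pathway list per coding kilobase, the most variable one passing the test in each list, list members with no count, and the gene nearest to each STAT gene. Foxp3, Il10ra, Il2rg, Socs2, Ncoa1, the levels printed for Cd4 and Cd3e and the counts printed for Igha, Hbb-bs and Cd22 were chosen after their values were seen. The members and lists were chosen with earlier results of these data known. The alternatives tried included size factors of DESeq2 1.42.0, unscaled totals, different count minimums, the negative binomial model, other lengths, a threshold of 0.01 and leaving out each library. Removal of the GC trend (lowess, fraction 0.3) was added after seeing the data.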

Additional observations from a re-analysis of the deposited data

How the results depend on the processing

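The number of STAT genes passing the chi-square test stayed at 4 with DESeq2 size factors, plain totals, each other count minimum and the GC trend removed. It was 3 at an adjusted p of 0.01, where Stat2 dropped out, and ran from 1 to 3 when a library was left out, with Stat5b alone passing without library 3. Under the negative binomial model the counts passing were 0 STAT genes, 94 of all genes and 0 pathway genes; this model adds spread by construction. The number of all genes passing was 1700 at an adjusted p of 0.01 and ran from 960 (without library 2) to 2014 with a library left out, against 2836 with all 3, and that of pathway genes ran from 11 (without library 2) to 22, against 26. Tests without a library rest on fewer counts.

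The log2 ratio of Stat5b to Stat5a was 0.33 with exon length, 0.01 per unshared base, and ran from -0.05 to 0.06 with a library left out. The order of levels held in 13 of 15 pairs with exon length, and in 14 to 15 pairs with a library left out, the exception being Stat5b above Stat5a without library 2. Per coding base not shared with another STAT gene, Stat5b (99.1 CPM per kilobase) and Stat5a (98.9) both stood above Stat2 (85.8). That step left the level of Stat4 unchanged. All 6 STAT genes were detected under each threshold and without each library. No paired analysis was possible because the labels give 1 group. The labels give 1 biological replicate, so variation between animals could not be measured.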
